A study of Mus musculus with 28 samples.

Results

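The unfolded protein response and the integrated stress response were followed in mouse macrophages through 10 genes, Atf4, Ddit3, Chac1, Trib3, Asns, Sesn2, Xbp1, Hspa5, Herpud1 and Ppp1r15a, out of 54532 genes in the count table. The 10 were listed by name for their place in these pathways. Macrophages were grown with M-CSF from the bone marrow of C57/B6JB mice, and their RNA was read by bulk sequencing, with 1 library per culture. The paper's cell culture methods give the mice an age of 8 to 12 weeks, while its ethics statement gives a younger range for murine experiments. After a night in RPMI with serum and M-CSF, all 28 cultures were washed and given fresh medium with calcium chloride. The control groups received PBS, the VWF groups plasma-derived von Willebrand factor (pd-VWF, the large glycoprotein that tethers platelets to damaged vessel walls) at 10 µg/ml, and the LPS groups bacterial lipopolysaccharide at 100 ng/ml. Incubation lasted 3.5 h or 16 h, with 5 control, 5 VWF and 4 LPS cultures at each time. The question was which early and late gene expression VWF evokes in macrophages, with LPS as a reference stimulus. The labels call the cultures biological replicates without saying whether each came from its own mouse, so p-values measure the spread between cultures. In bulk RNA, fewer cells of a type and less RNA per cell cannot be told apart.

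When unfolded protein gathers in the endoplasmic reticulum (ER), the sensors PERK, IRE1 and ATF6 raise chaperones, oxidoreductases and the machinery that sends misfolded protein to the proteasome. PERK shares its substrate, the translation initiation factor eIF2α, with kinases that sense double-stranded RNA, haem lack and amino acid lack, and its phosphorylation slows translation in general while favouring translation of ATF4. ATF4 then drives genes of amino acid supply, redox balance and cell death, and PPP1R15A (GADD34) brings a phosphatase to eIF2α and so closes the loop. In macrophages both pathways are known to be tied to cytokine production and to the load of secreted protein. Counts per gene cannot show translation of Atf4, phosphorylation of eIF2α or splicing of Xbp1 mRNA.

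The promoters are shown first because some of the 10 genes carry the short elements through which these pathways act. All 10 had a RefSeq promoter window of 300 bases, 250 before and 50 after the start site, on GRCm38.p6. Both strands were searched for the ER stress response element ERSE (CCAAT and CCACG with 9 bases between them), its shorter form ERSE-II (ATTGG and CCACG with 1 base between them), the C/EBP-ATF response element CARE (TGATGNAA) and the element UPRE (TGACGTGG). ERSE-II was added after the sequences had been seen. Of 32851 windows in the RefSeq table, 0.119% held ERSE, 0.0365% ERSE-II, 3.97% CARE and 0.676% UPRE. In all, 5 of the 10 windows held at least 1 of these elements. The 30 bases around the element in each of these 5 genes read, 5′ to 3′ on the gene's strand with the element in capitals (a CARE on the opposite strand appears as its reverse complement), as follows.
Chac1, CARE, chr2:119351038-119351067 (+): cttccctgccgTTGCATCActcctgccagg
Trib3, CARE, chr2:152344028-152344057 (-): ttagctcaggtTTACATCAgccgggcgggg
Asns, CARE, chr6:7693214-7693243 (-): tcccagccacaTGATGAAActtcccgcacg
Herpud1, CARE, chr8:94386306-94386335 (+): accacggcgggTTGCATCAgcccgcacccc
Hspa5, ERSE, chr2:34772020-34772049 (+): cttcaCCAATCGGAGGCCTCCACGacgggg
Counted from the start site, the element lay at -193 to -186 in Chac1, at 15 to 22 in Trib3, at -23 to -16 in Asns, at -112 to -105 in Herpud1 and at -65 to -47 in Hspa5. Herpud1 also held ERSE-II at -52 to -42, with no overlap between its elements. Herpud1 and Ppp1r15a were the genes of the 10 called higher with VWF at 3.5 h (adjusted p below 0.05 and log2 fold change above 1), so their 250 bases upstream of the start site are given whole, elements again in capitals.
Herpud1, chr8:94386179-94386428 (+): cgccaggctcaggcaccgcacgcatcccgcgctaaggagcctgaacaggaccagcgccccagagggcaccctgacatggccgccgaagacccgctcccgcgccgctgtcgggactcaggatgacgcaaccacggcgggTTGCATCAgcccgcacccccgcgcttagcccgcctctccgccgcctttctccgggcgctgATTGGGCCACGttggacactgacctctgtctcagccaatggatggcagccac
Ppp1r15a, chr7:45526269-45526518 (-): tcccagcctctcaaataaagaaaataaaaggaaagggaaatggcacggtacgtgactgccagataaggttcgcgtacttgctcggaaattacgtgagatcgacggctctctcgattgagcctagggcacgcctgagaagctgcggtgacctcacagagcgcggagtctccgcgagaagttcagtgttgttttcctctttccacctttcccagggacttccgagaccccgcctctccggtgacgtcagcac
None of the 4 elements was found in the windows of Ppp1r15a, Atf4, Ddit3, Sesn2 or Xbp1. These are matches of letters and say nothing about binding in these cultures.

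Depth ran from 41131209 to 77699206 counts per library. Macrophage markers (7 of 7 genes, among them Adgre1, Csf1r and Lyz2) summed to between 4858 and 25694 CPM (counts scaled to library size with TMM factors) in every library, and the 5 late VWF cultures (18358 to 25694 CPM) lay above all others (at most 16238 CPM). Lyz2 had the widest range of the 7 markers, from 2263 to 18444 CPM, and single markers were not compared between groups. T cell, B cell and erythroid markers summed to at most 0.319, 0.432 and 0.0835 CPM, and megakaryocyte markers to at most 2.60 CPM. Neutrophil markers (4 of 4 genes) summed to 2.38 to 11.3 CPM at 3.5 h and 7.26 to 24.3 CPM at 16 h, in ranges that overlapped between treatments at each time. These sums came mostly through S100a8, while Ly6g, Elane and Mpo stayed at or under 0.0352, 0.522 and 0.787 CPM in every library. Fibroblast markers (3 of 3 genes) summed to 16.3 to 382 CPM with overlapping ranges in all 6 groups, and were highest in replicate 1 of each group. Dendritic cell markers (4 of 4 genes) summed to 13.6 to 19.3 CPM with VWF at 3.5 h, 21.6 to 27.0 with LPS at 3.5 h and 12.9 to 29.8 with LPS at 16 h, and to at most 2.91 in the other groups, through Xcr1, while Flt3 stayed at or under 0.205 CPM in every library. Replicate 5 of the 16 h controls stood apart, with a mean Spearman correlation of 0.901 to the rest of its group against 0.968 to 0.971 for the others, and it had the lowest macrophage marker sum of all libraries. Replicate 4 of LPS at 16 h had a mean correlation of 0.946 against 0.969 to 0.981 for the others, the lowest TMM factor (0.735) and the lowest macrophage marker sum of the treated cultures. Leaving it out kept the late counts of called genes at 2 (LPS and control), 4 (VWF and LPS) and 3 (LPS between the times), and moved the count for the change of the LPS effect with time from 4 to 5. TMM factors were 0.735 to 0.848 in the LPS groups and 0.945 to 1.18 in the other groups, and scaling by library size alone moved the median log2 fold change of all genes to -0.54 with LPS at 3.5 h, -0.57 with LPS at 16 h and -0.22 with VWF at 3.5 h. With it the share of calls that were higher went from 62.4% to 48.8% for VWF at 3.5 h, from 52.1% to 24.7% and from 55.3% to 26.0% for LPS at 3.5 h and 16 h, from 41.2% to 68.8% and from 43.3% to 71.2% for VWF against LPS, and from 40.5% to 51.8% for the change of the VWF effect with time. The part of these differences in the results was not tested.

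Per length, Hspa5 and Atf4 were the most abundant of the 10 in the 3.5 h controls, at 509.8 ± 62.3 and 469 ± 25.8 TPM (transcript counts scaled for gene length and library, mean ± SD, n = 5). Xbp1 followed at 165 ± 9.95 TPM. Ddit3, Herpud1, Ppp1r15a and Asns lay between 33.9 and 47.6 TPM, Sesn2 and Trib3 at 13.5 and 9.39 TPM, and Chac1 was lowest at 5.47 TPM.

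A gene was tested where it reached 10 TPM in at least 1 culture of a comparison, and called higher or lower at an adjusted p below 0.05 (quasi-likelihood test of edgeR, adjusted by Benjamini-Hochberg over all genes tested) and an absolute log2 fold change above 1. Log2 fold changes are given ± SE, and gene positions are those of GENCODE M21 on GRCm38, where all 10 are protein-coding genes. VWF and LPS were each set against the same control cultures. At 3.5 h VWF raised 2 of the 10 genes, Herpud1 and Ppp1r15a, and lowered none, where 14.7% of 8200 genes tested were called, 9.18% higher and 5.52% lower. At 16 h VWF raised none and lowered 2 of the 9 tested, Trib3 and Ppp1r15a, against 8.71% of 7798 genes, 4.55% higher and 4.15% lower. LPS at 3.5 h raised Ppp1r15a and lowered Trib3 and Sesn2 among the 9 tested, against 24.5% of 8190 genes, 12.8% higher and 11.8% lower. Trib3 and Sesn2 met the minimum there only through control cultures, at up to 12.2 and 19.2 TPM. With LPS they stood at 3.73 and 4.09 TPM at most, so their calls are no support for the counts of that comparison. LPS at 16 h raised Ddit3 and Ppp1r15a and lowered none of the 9, against 27.6% of 7994 genes, 15.3% higher and 12.4% lower. Passing the adjusted p alone, without the fold threshold, were 5, 8, 8 and 8 of the genes in these 4 comparisons, against 43.6%, 27.7%, 65.7% and 53.7% of all genes tested. Cultures of treated and control groups did not overlap for 5, 7, 8 and 7 of the genes, against 35.5%, 24.6%, 56.3% and 47.9% of all genes.

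**Figure D1:**
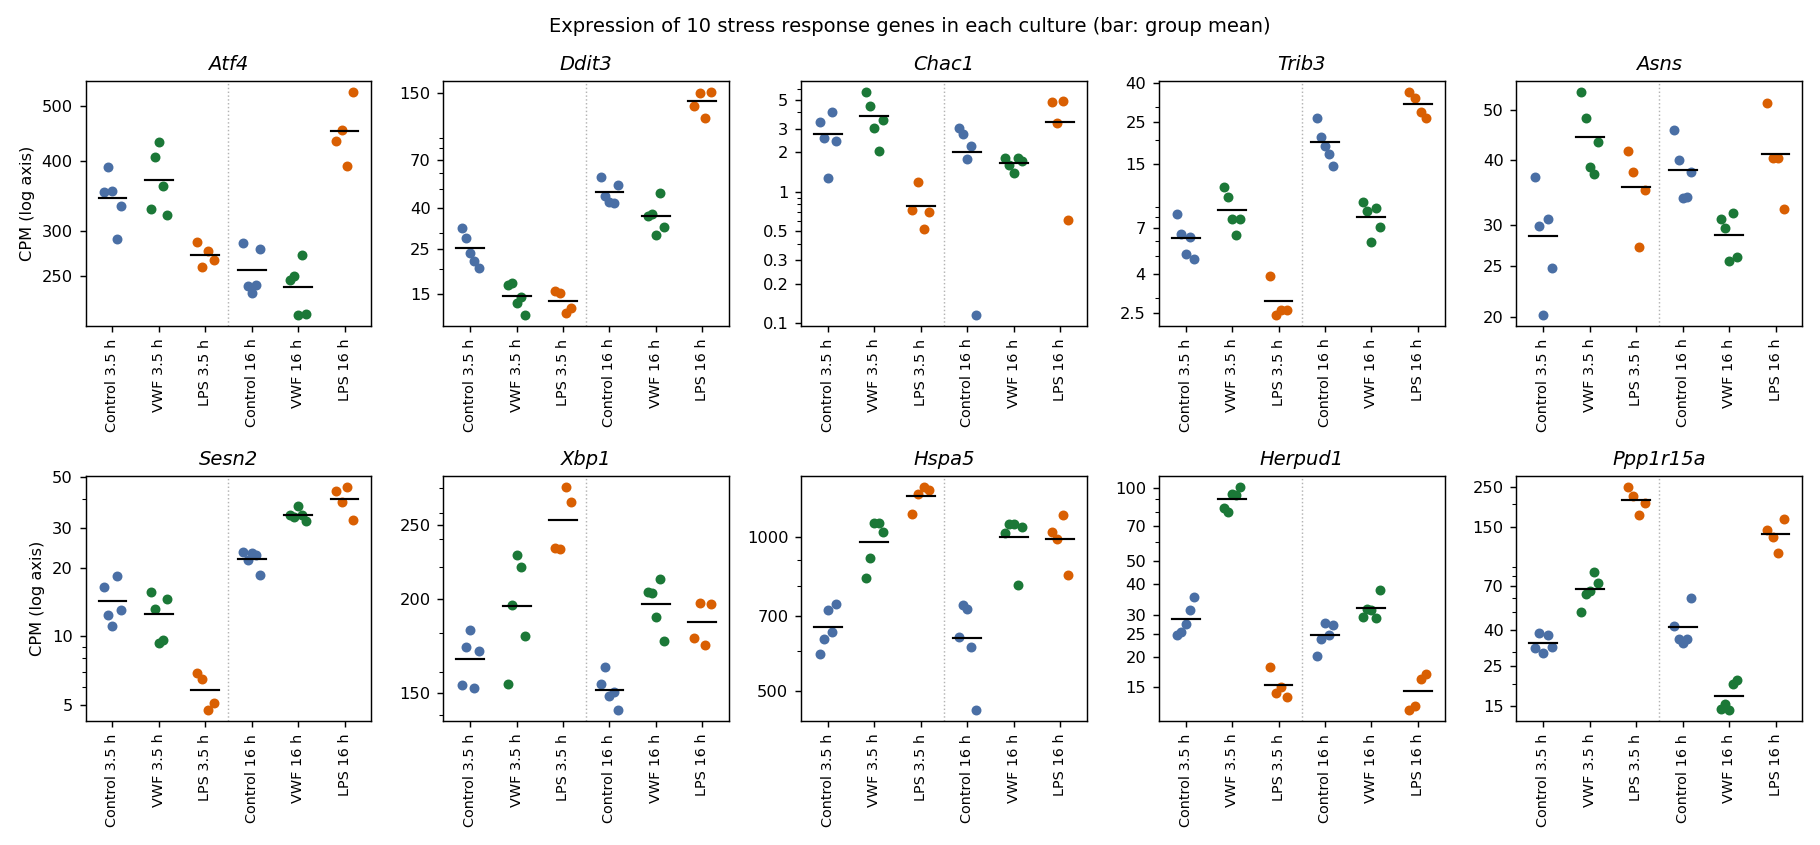
CPM (log axis) of each of the 10 genes in every culture, by treatment and time; points are cultures and the bar is the group mean. Herpud1 is highest in the 5 VWF cultures at 3.5 h (80.2 to 101 CPM), Ddit3 in the 4 LPS cultures at 16 h (113 to 152 CPM), and Ppp1r15a is lowest in the 5 VWF cultures at 16 h (14.2 to 20.8 CPM).

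Atf4 (chr15:80255184-80257541, + strand), the transcription factor at the centre of the integrated stress response, was not called in any comparison with control. At 3.5 h its level was 353, 390.4, 354, 291 and 333 CPM in the control cultures, 328, 407, 431, 361 and 321 with VWF and 288, 260.0, 277 and 268 with LPS. The VWF and control ranges overlapped and the log2 fold change was 0.13 ± 0.11, adjusted p = 0.376, with a sign that turned under library-size scaling (-0.09). All 4 LPS cultures lay under every control culture, at a log2 fold change of -0.32 ± 0.10, adjusted p = 0.0151, which stayed under the fold threshold (-0.83 with library-size scaling). At 16 h the values were 286, 239.9, 234, 242 and 279 CPM in controls, 246, 250.4, 214, 272 and 215 with VWF and 433, 454, 392 and 529 with LPS. VWF again overlapped with control (-0.10 ± 0.09, adjusted p = 0.49), whereas every LPS culture lay above every control culture (0.86 ± 0.12, adjusted p = 0.00021), short of the fold threshold, at 0.31 with library-size scaling. LPS and VWF stood apart at 16 h, with Atf4 lower under VWF (-0.91 ± 0.11, adjusted p = 5.84e-05).

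Ddit3 (chr10:127290774-127296288, + strand) encodes CHOP, a transcription factor that acts downstream of ATF4 and is tied to cell death under lasting ER stress. It lay under control with both stimuli at 3.5 h and above control with LPS at 16 h. At 3.5 h the control cultures held 32.0, 28.6, 24.0, 21.9 and 20.1 CPM, the VWF cultures 16.7, 16.9, 13.5, 14.4 and 11.8 and the LPS cultures 15.6, 15.1, 12.1 and 12.8. Neither treated range reached the control range, and the level was 0.589 of control with VWF (log2 fold change -0.76 ± 0.15, adjusted p = 0.00151) and 0.554 of control with LPS (-0.85 ± 0.16, adjusted p = 0.000643). Both stayed under the fold threshold, and with library-size scaling the LPS value became -1.37 and was called. The 16 h controls held 57.7, 46.2, 43.3, 42.7 and 52.2 CPM, above all early controls (0.94 ± 0.15, adjusted p = 5.29e-05). At that time the VWF cultures held 36.5, 37.4, 29.5, 48.0 and 32.2 CPM and the LPS cultures 131, 152, 113 and 152 CPM. With LPS Ddit3 rose 2.90-fold, to 137 ± 18.7 from 48.4 ± 6.42 CPM (SD, n = 4 and 5, log2 fold change 1.54 ± 0.13, adjusted p = 7.36e-06), and no other group reached that range. With library-size scaling the value was 0.99, just under the fold threshold. With VWF it overlapped with control at 16 h (-0.41 ± 0.14, adjusted p = 0.0486). Of Ddit3's exon length, 10.9% overlaps other annotated genes, namely Mars and Gm4189 on the opposite strand, whose reads cannot be told apart unless counting used strand, and a second entry named Ddit3 on the same strand, which had 0 counts in every library.

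Xbp1 (chr11:5520659-5525893, + strand), the factor that IRE1 activates by splicing, was above control with both stimuli at 16 h and with LPS at 3.5 h, by less than the fold threshold. Control cultures at 3.5 h held 153, 173, 182, 152 and 170.5 CPM, VWF cultures 154, 196, 228, 220.0 and 179 and LPS cultures 234, 233, 281 and 269. The LPS cultures were all above the controls (0.63 ± 0.09, adjusted p = 0.00011), while VWF overlapped with them (0.26 ± 0.10, adjusted p = 0.0667). At 16 h the values were 154, 162, 149, 150.1 and 142 CPM in controls, 204, 203, 189, 213 and 176 with VWF and 177, 197, 173 and 196 with LPS, and both treated groups lay wholly above control. Neither passed the fold threshold, with log2 fold changes of 0.37 ± 0.08, adjusted p = 0.00438 for VWF and 0.33 ± 0.08, adjusted p = 0.00747 for LPS. The LPS values depended on scaling, since with library size alone they were 0.11 at 3.5 h and -0.21 at 16 h, and per length Xbp1 stood at 159 ± 11.6 TPM with LPS and 165 ± 9.95 TPM in controls at 3.5 h.

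Trib3 (chr2:152337422-152344032, - strand), a pseudokinase induced by ATF4 and CHOP that restrains AKT and ATF4 itself, ranged from 2.90 to 30.8 CPM in its group means. At 3.5 h it held 8.22, 6.49, 5.09, 6.25 and 4.82 CPM in controls, 11.4, 10.1, 7.77, 6.40 and 7.81 with VWF and 3.92, 2.46, 2.60 and 2.60 with LPS. VWF overlapped with control (0.52 ± 0.20, adjusted p = 0.0505). With LPS every culture lay under the controls and Trib3 fell to 0.475 of control (-1.07 ± 0.22, adjusted p = 0.00129), a call that was lost without replicate 1 of the 3.5 h controls (-0.94). In the 16 h controls the level was 26.3, 20.9, 18.7, 16.9 and 14.8 CPM, 3.15-fold that of the early controls (1.66 ± 0.20, adjusted p = 1.95e-06), the one call of the 10 with time under PBS, against 10.1% of 8660 genes called (4.52% higher and 5.59% lower). Without replicate 1 of the 3.5 h controls Ddit3 was called there too (1.04). Over the same interval 5 of the 10 passed the adjusted p alone and 4 did not overlap, against 49.6% and 37% of all genes. The late VWF cultures, at 9.56, 8.53, 5.89, 8.84 and 7.03 CPM, all lay under the late controls, and Trib3 stood at 0.406 of control (-1.30 ± 0.19, adjusted p = 0.000405). Between the times under VWF itself Trib3 overlapped and did not pass the test (-0.15 ± 0.19, adjusted p = 0.527). Late LPS cultures held 35.6, 33.3, 28.2 and 26.2 CPM and overlapped with control by a single culture on each side (0.70 ± 0.17, adjusted p = 0.00704), and with library-size scaling the value was 0.15 (adjusted p = 0.565). Replicate 1 had the highest Trib3 in all 6 groups, as it had the highest fibroblast marker sum.

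Asns (chr6:7675169-7693254, - strand), the asparagine synthetase and a textbook ATF4 target, was above control at 3.5 h and below it at 16 h under VWF, on either side by less than the fold threshold. Control cultures at 3.5 h held 37.1, 29.9, 20.2, 30.9 and 24.9 CPM, VWF cultures 54.0, 48.3, 38.8, 37.6 and 43.3 and LPS cultures 41.7, 38.0, 27.3 and 35.1. All VWF cultures lay above all controls at a log2 fold change of 0.66 ± 0.17, adjusted p = 0.00663, while LPS overlapped with control (0.33 ± 0.18, adjusted p = 0.121). At 16 h the levels were 45.6, 40.0, 33.9, 33.9 and 38.0 CPM in controls, 30.8, 29.7, 25.6, 31.7 and 26.0 with VWF and 51.6, 40.3, 40.3 and 32.2 with LPS. The VWF cultures then lay below every control (-0.42 ± 0.11, adjusted p = 0.012), and LPS overlapped with control (0.14 ± 0.15, adjusted p = 0.458).

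Sesn2 (chr4:132492032-132510501, - strand), a stress-induced inhibitor of mTORC1, was higher at 16 h than at 3.5 h in all 3 treatments. At 3.5 h it held 16.5, 12.5, 11.1, 18.5 and 13.1 CPM in controls, 15.6, 13.2, 9.37, 9.65 and 14.7 with VWF and 6.90, 6.49, 4.75 and 5.12 with LPS. VWF and control overlapped (-0.17 ± 0.19, adjusted p = 0.543), whereas every LPS culture lay under every other early culture and Sesn2 fell to 0.412 of control (-1.28 ± 0.18, adjusted p = 9.77e-05). At 16 h the controls held 23.4, 21.8, 23.3, 22.9 and 18.6 CPM, the VWF cultures 34.1, 33.4, 37.6, 34.2 and 32.1 and the LPS cultures 43.6, 39.0, 45.2 and 32.5, and both treated groups lay wholly above control. The log2 fold changes, 0.63 ± 0.09, adjusted p = 0.000372 for VWF and 0.90 ± 0.12, adjusted p = 0.000132 for LPS, did not pass the fold threshold, and with library-size scaling the LPS value was 0.36 (adjusted p = 0.0978). In controls Sesn2 rose 1.53-fold with time (0.62 ± 0.15, adjusted p = 0.00284), under the fold threshold. From 3.5 h to 16 h Sesn2 rose 2.70-fold under VWF and 7.03-fold under LPS (adjusted p = 1.68e-07 and 6.65e-10).

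Chac1 (chr2:119351229-119354381, + strand), an ATF4 target that degrades glutathione, was the least abundant of the 10 and passed the TPM minimum through 1 VWF culture at 3.5 h. Early controls held 3.35, 2.54, 1.26, 4.02 and 2.44 CPM, VWF cultures 5.69, 4.48, 3.03, 2.04 and 3.47 and LPS cultures 0.718, 1.18, 0.519 and 0.704. VWF overlapped with control (0.49 ± 0.34, adjusted p = 0.28), and all LPS cultures lay under all controls in a comparison where the gene was below the minimum. Tested without a minimum, Chac1 was lower with LPS at 3.5 h by a log2 fold change of -1.73 (edgeR, adjusted p = 9.27e-05). At 16 h the controls held 3.05, 2.75, 1.78, 2.21 and 0.116 CPM, the VWF cultures 1.79, 1.59, 1.38, 1.79 and 1.70 and the LPS cultures 4.79, 3.32, 4.87 and 0.605, so that all 3 groups overlapped and 1 control and 1 LPS culture stood far below their groups. The low control culture, with 6 counts, was replicate 5, and the low LPS culture replicate 4, the libraries that stood apart over all genes.

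Hspa5 (chr2:34771970-34777547, + strand) encodes BiP, the main ER chaperone and a target of ATF6. It was higher under both stimuli at both times. Early controls held 590.1, 631, 719, 653 and 739 CPM, VWF cultures 832, 909.7, 1063, 1063 and 1023 and LPS cultures 1107, 1211, 1248 and 1235, in 3 ranges that did not overlap. The log2 fold change was 0.58 ± 0.09, adjusted p = 0.000333 with VWF and 0.87 ± 0.09, adjusted p = 8.42e-06 with LPS. Late controls held 639, 737, 723, 611 and 459.7 CPM, VWF cultures 1018, 1057, 1059, 804 and 1046 and LPS cultures 1022, 989, 1105 and 844. Both treated groups again lay wholly above control, with log2 fold changes of 0.64 ± 0.15, adjusted p = 0.00719 and 0.68 ± 0.15, adjusted p = 0.004. The 4 differences stayed under the fold threshold. The lowest late control, at 459.7 CPM, was replicate 5, and without it the 16 h values were 0.55 for VWF and 0.58 for LPS. With library-size scaling the LPS values came to 0.35 at 3.5 h and 0.13 at 16 h.

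Herpud1 (chr8:94386438-94395377, + strand), an ER membrane protein that recruits the ubiquitin ligase of ER-associated degradation, had the largest log2 difference of the 10 between VWF and LPS at 3.5 h. Control cultures held 24.6, 25.5, 27.4, 31.3 and 35.5 CPM, VWF cultures 82.8, 80.2, 94.6, 93.6 and 101 and LPS cultures 18.3, 14.2, 15.0 and 13.7. The 3 ranges did not overlap. VWF raised Herpud1 to 90.5 ± 8.68 from 28.9 ± 4.51 CPM (SD, n = 5 each, log2 fold change 1.68 ± 0.11, adjusted p = 2.69e-07), whereas with LPS it stood at 0.538 of control (-0.90 ± 0.13, adjusted p = 9.89e-05), short of the fold threshold. By 16 h the controls held 20.3, 23.7, 27.8, 24.7 and 27.3 CPM, the VWF cultures 29.2, 31.7, 31.3, 29.1 and 38.0 and the LPS cultures 12.1, 12.5, 16.2 and 17.0. VWF cultures still lay above control (0.36 ± 0.11, adjusted p = 0.0309) and LPS cultures below it (-0.74 ± 0.15, adjusted p = 0.00261), both under the fold threshold. With library-size scaling the LPS values came to -1.42 and -1.28 and were called.

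Ppp1r15a (chr7:45522916-45526268, - strand), the stress-induced partner of the eIF2α phosphatase, was the one gene of the 10 called in all 4 comparisons with control, in a direction that turned with time under VWF. At 3.5 h the controls held 31.8, 38.4, 29.6, 37.1 and 31.9 CPM, the VWF cultures 50.5, 63.0, 65.5, 83.5 and 73.0 and the LPS cultures 249, 222, 174 and 203, without overlap. VWF raised it 2.03-fold (1.02 ± 0.13, adjusted p = 5.16e-05) and LPS 6.37-fold (2.67 ± 0.12, adjusted p = 8.35e-09). The early VWF value sat at the fold threshold, and was 0.79 with library-size scaling and 0.93 to 0.99 without 1 of 5 cultures (control replicate 1, 3 or 5, or VWF replicate 4 or 5). At 16 h the controls held 42.0, 35.6, 33.8, 35.4 and 60.0 CPM, the VWF cultures 14.4, 15.3, 14.2, 19.9 and 20.8 and the LPS cultures 144, 132, 107 and 166, again without overlap. VWF lowered it to 0.408 of control (-1.29 ± 0.18, adjusted p = 0.000322) and LPS raised it 3.41-fold (1.77 ± 0.20, adjusted p = 5.78e-05). The highest late control, at 60.0 CPM, was replicate 5, and without it these values were -1.13 and 1.94.

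**Figure D2:**
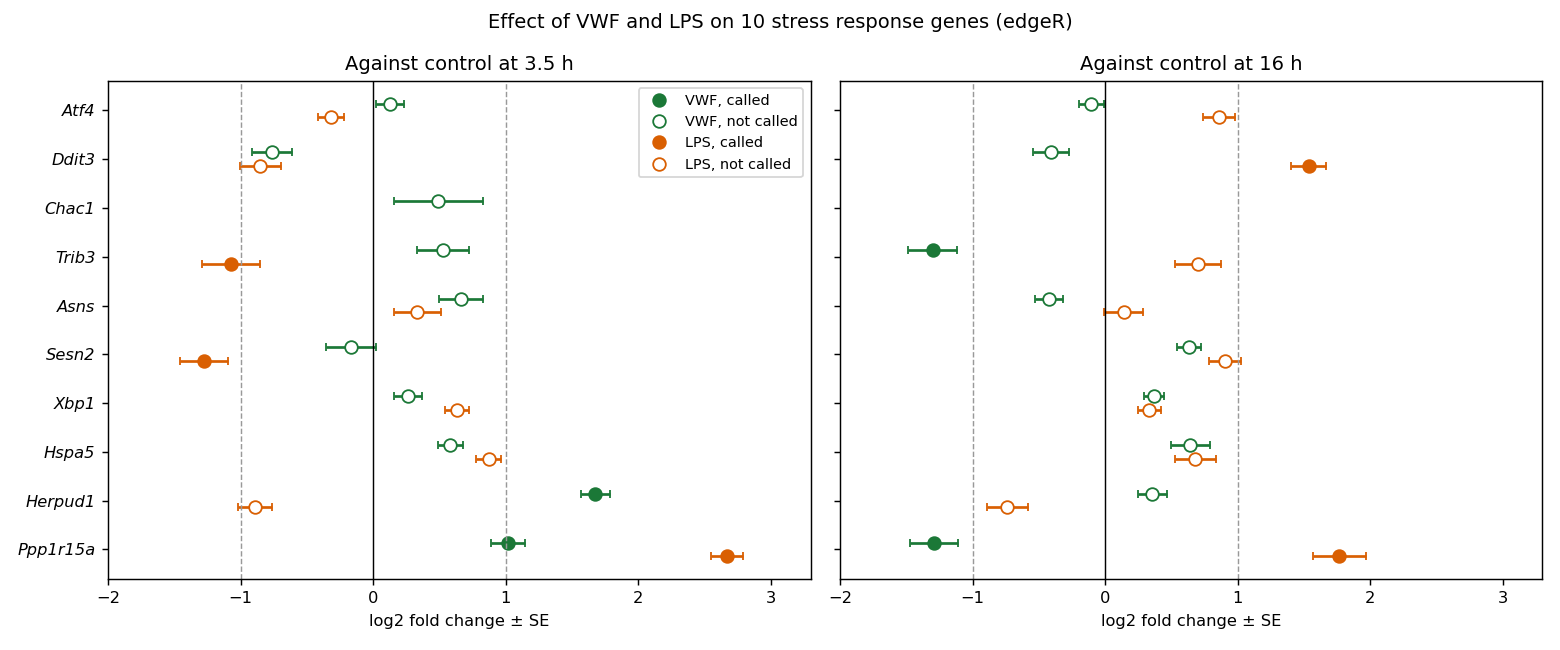
Log2 fold change ± SE (edgeR) of the 10 genes for VWF and LPS against control at 3.5 h and 16 h; filled points were called, and dashed lines mark log2 fold changes of -1 and 1. Herpud1 lies at 1.68 with VWF and -0.90 with LPS at 3.5 h, and Ppp1r15a at -1.29 with VWF and 1.77 with LPS at 16 h.

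Set against each other directly, VWF and LPS differed in 5 of the 10 genes at 3.5 h, against 11.4% of 7500 genes tested (4.71% higher with VWF and 6.71% lower). Higher with VWF were Herpud1, Trib3 and Sesn2, and also Chac1, which was tested through 1 culture of the group where it was high (VWF replicate 1) and whose call is therefore no support for the count. Without Chac1 the counts were 4 of 9 called, 7 not overlapping and 7 passing the adjusted p alone. Trib3 and Sesn2, still in these counts, likewise reached the minimum only in VWF cultures, at up to 16.9 and 14.2 TPM. With LPS they stood at 3.73 and 4.09 TPM at most, so their calls are no support for the counts either. Tested without a minimum, Chac1 differed by 2.22 (edgeR, adjusted p = 3.63e-06). The log2 differences were 2.59 ± 0.12, adjusted p = 1.13e-07 for Herpud1, 2.28 ± 0.36, adjusted p = 0.000437 for Chac1, 1.61 ± 0.22, adjusted p = 0.000188 for Trib3 and 1.13 ± 0.20, adjusted p = 0.00102 for Sesn2. Ppp1r15a was lower with VWF (-1.64 ± 0.15, adjusted p = 7.85e-06). VWF and LPS cultures did not overlap in 8 of the 10 genes, these 5 included, against 39.9% of all genes, and 8 passed the adjusted p alone, against 50.2%. Ddit3, whose early cultures lay under control with both stimuli, did not pass the test between them (0.10 ± 0.14, adjusted p = 0.556). At 16 h 4 of 9 genes were called, against 25.5% of 7574 genes (11.1% higher with VWF and 14.5% lower), while 6 did not overlap and 6 passed the adjusted p alone, against 51.6% and 60.5%. Herpud1 was higher with VWF (1.15 ± 0.14, adjusted p = 5.84e-05), whereas Ddit3, Trib3 and Ppp1r15a were lower, at log2 fold changes of -1.90 ± 0.15, adjusted p = 3.3e-06 for Ddit3, -1.95 ± 0.16, adjusted p = 4.31e-06 for Trib3 and -3.01 ± 0.17, adjusted p = 3.58e-07 for Ppp1r15a. Hspa5 and Xbp1 did not pass the test between the stimuli at 16 h, with log2 differences of 0.01 ± 0.12, adjusted p = 0.933 and 0.08 ± 0.08, adjusted p = 0.409.

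**Figure D3:**
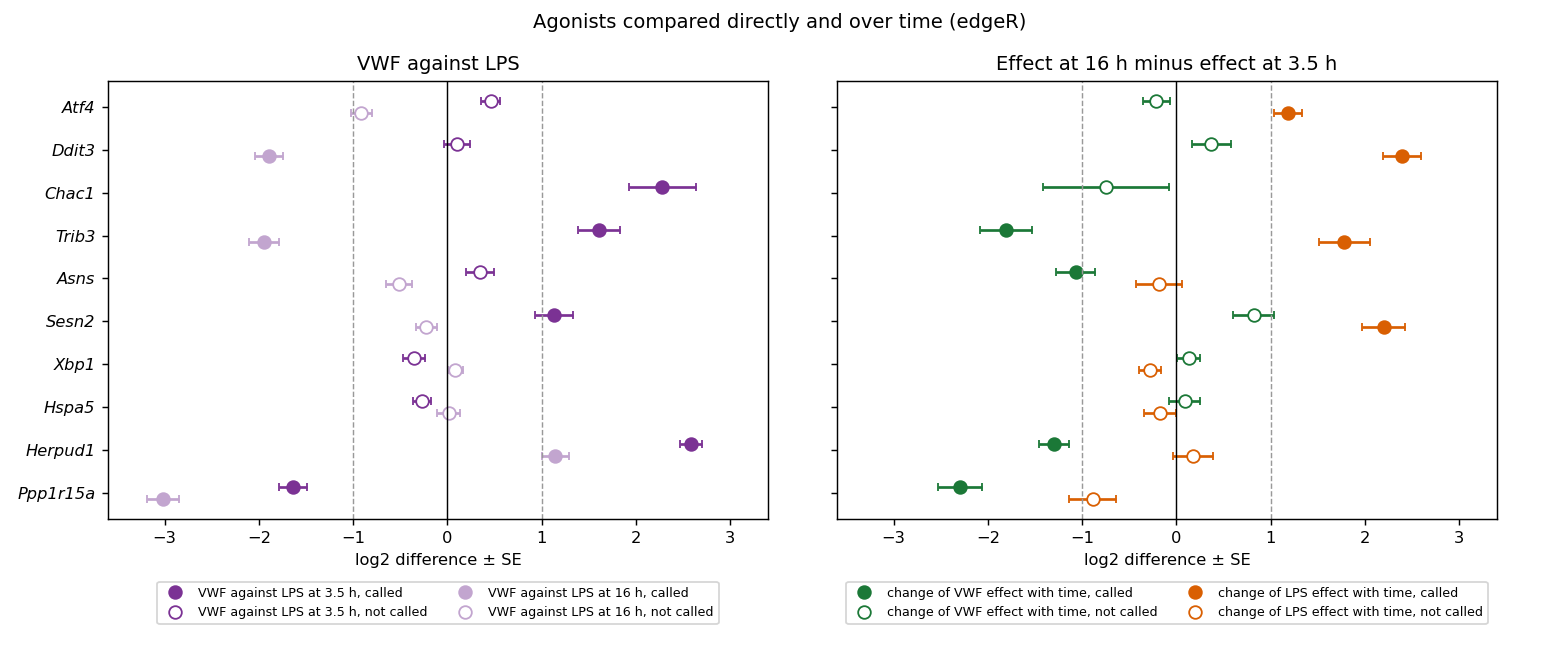
Log2 difference ± SE (edgeR) of the 10 genes between VWF and LPS at each time (left) and of each effect against control at 16 h minus 3.5 h (right); filled points were called and dashed lines mark -1 and 1. For Trib3 the VWF against LPS difference is 1.61 at 3.5 h and -1.95 at 16 h, and the change of effect is -1.81 for VWF and 1.78 for LPS.

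The change of each effect between the times was tested as an interaction. For VWF, 4 of the 10 genes were called, all with a lower effect at 16 h than at 3.5 h, against 13.5% of 8660 genes (5.47% higher and 8.05% lower), and 5 passed the adjusted p alone, against 32.4%. Ppp1r15a changed by -2.30 ± 0.24, adjusted p = 2.66e-07, Trib3 by -1.81 ± 0.27, adjusted p = 3.22e-05, Herpud1 by -1.30 ± 0.16, adjusted p = 2.26e-06 and Asns by -1.07 ± 0.21, adjusted p = 0.000393, on the log2 scale. The call for Asns was lost with library-size scaling (-0.93) and without replicate 1 of the late controls, replicate 3 of the early controls or replicate 1 of the early VWF cultures (-0.99, -0.94 and -0.98). For LPS, 4 of 9 genes were called, all with a higher effect at 16 h, against 26.3% of 8748 genes (13.5% higher and 12.8% lower), and 5 passed the adjusted p alone, against 48.8%. They were Ddit3 (2.40 ± 0.20, adjusted p = 4.75e-08), Sesn2 (2.20 ± 0.22, adjusted p = 4.61e-07), Trib3 (1.78 ± 0.27, adjusted p = 3.99e-05) and Atf4 (1.19 ± 0.15, adjusted p = 3.87e-06). Between 3.5 h and 16 h under VWF, Sesn2 and Ddit3 rose and Ppp1r15a, Herpud1 and Chac1 fell (5 of 10, against 20.7% of 8660 genes, 8.86% higher and 11.8% lower), 7 passed the adjusted p alone and 7 did not overlap (61.5% and 52.7% of all genes). Chac1 again met the minimum through early VWF replicate 1 alone, and without Chac1 4 of 9 were called, 6 passed the adjusted p alone and 6 did not overlap. The Chac1 call (-1.20 ± 0.48) was lost without a minimum (-1.20, adjusted p = 0.0617), with library-size scaling (-1.11) and in 7 of 19 fits that left out a culture, and in the fit without early VWF replicate 1 the gene was not tested. Under LPS, Trib3, Ddit3 and Sesn2 rose (3 of 9, against 27.1% of 8748 genes, 13.7% higher and 13.5% lower), and 6 passed the adjusted p alone and 7 did not overlap (59.3% and 53.2% of all genes). The rises were log2 fold changes of 3.44 ± 0.22, adjusted p = 8.07e-10, 3.33 ± 0.16, adjusted p = 3.72e-11 and 2.81 ± 0.18, adjusted p = 6.65e-10.

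Wider lists of the same pathways are given by counts and medians, beside the median log2 fold change over all genes tested, which was 0.00 and -0.03 for VWF and -0.02 and -0.03 for LPS at 3.5 h and 16 h. Of all genes tested, 9.18% were called higher and 5.52% lower with VWF and 12.8% and 11.8% with LPS at 3.5 h, and 4.55% and 4.15% with VWF and 15.3% and 12.4% with LPS at 16 h. The adjusted p alone, called genes included, was passed by 43.6% and 27.7% with VWF and by 65.7% and 53.7% with LPS at 3.5 h and 16 h. The 10 genes themselves had medians of 0.51 and -0.10 with VWF and -0.32 and 0.70 with LPS. Ero1l stands both in the list of ER folding and degradation and in that of other stress factors and effectors, and is counted in each. In these lists, too, a gene could meet the minimum only through the group where it was high. Calls of such genes are no support for the counts.

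Of 14 genes of the stress kinases and eIF2 control, VWF at 3.5 h raised 3 and lowered 1 of 14 tested, and LPS raised 3 and lowered 4. Eif2ak2, the kinase PKR that senses double-stranded RNA, rose with both (log2 fold change 2.07 with VWF and 3.49 with LPS), at 92.4 ± 17.3 CPM against 22.5 ± 2.83 with VWF. Ppp1r15b, the constitutive partner of the eIF2α phosphatase, rose by 1.46 with VWF and 2.47 with LPS, and the adaptor Nck1 by 1.54 and 1.04. Impact, an inhibitor of the amino acid sensor GCN2, fell by 1.48 with VWF and by 2.58 with LPS. With LPS Eif2ak3, which encodes PERK, fell by 2.54, and Eif2ak4, which encodes GCN2, fell by 1.54 on the log2 scale. Eif2ak3 stood at 2.86 CPM with LPS and 16.9 in controls, and Eif2ak4 at 10.0 and 29.5. Against control 14 genes were tested at 3.5 h and 12 at 16 h, but 11 at each time between the stimuli. At each time at least 1 thus met the minimum only through control cultures, and calls of such genes are no support for the counts. By 16 h Eif2ak2 was the one of 12 tested that VWF raised (1.37), and none fell. LPS at 16 h raised 2 and lowered 2 of 12, with Eif2ak2 at 2.67, Ppp1r15b at 1.87, Eif2ak3 at -1.65 and Mbtps1, the protease that cleaves ATF6, at -1.02. List medians were -0.08 and -0.0020 with VWF and -0.29 and 0.08 with LPS at 3.5 h and 16 h.

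Few genes of ER folding and degradation were called. With VWF at 3.5 h edgeR and DESeq2 each called 0 of 26 tested, 8 of which passed the adjusted p alone in edgeR and 10 an unadjusted p below 0.05. The list median was 0.02. At 16 h VWF raised 1 of 25, the disulphide isomerase Pdia4 (144 ± 7.82 CPM against 69.5 ± 8.27, log2 fold change 1.04), with 13 more passing the adjusted p alone and a list median of 0.30. LPS lowered 1 of 26 at 3.5 h, the oxidase Ero1lb (-1.25), with early and late list medians of -0.05 and 0.05. At 16 h LPS raised the oxidase Ero1l (1.54) and lowered Sdf2l1 (-1.08) and Ero1lb (-1.01) among 25 tested.

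In the amino acid list, Slc7a11, the cystine transporter, had the largest log2 fold change with both early stimuli, from 12.2 ± 2.83 CPM in early controls to 292.9 ± 51.7 with VWF (log2 fold change 4.61) and 103.6 ± 13.5 with LPS (3.11). Early VWF raised 1 and lowered 1 of 12 tested, the latter being the glutamine transporter Slc1a5 (-1.21). Early LPS raised 1 and lowered 2, Slc38a2 (-1.43) and Slc1a5 (-1.22). The list medians were 0.09 and -0.08 with early VWF and LPS, and -0.39 and -0.29 with late VWF and LPS. Late VWF lowered Phgdh (-1.35), the first enzyme of serine synthesis, and raised none of 11. Late LPS raised 2 of 12, Slc7a11 (3.79) and its partner chain Slc3a2 (1.90), and lowered 5, among them Slc1a5 (-2.41), Pck2 (-1.48) and Shmt2 (-1.38). With 12 tested for late LPS and 11 for late VWF, at least 1 met the minimum only through LPS cultures. Slc7a11 stood at 5.85 ± 1.92 CPM in late controls and 78.9 ± 11.9 with LPS. Between the late stimuli 10 were tested, so others met the minimum only through late controls. Calls of such genes are no support for these counts. In the list of 13 aminoacyl-tRNA synthetase and tRNA export genes, edgeR and DESeq2 each called 0 with VWF at either time. At 3.5 h 4 passed the adjusted p alone in edgeR and 6 an unadjusted p below 0.05, and at 16 h 0 and 2 did. Their medians were 0.20 and 0.04 with VWF and -0.23 and -0.12 with LPS. LPS raised 1 of 13 at 3.5 h, Wars (1.06), and at 16 h it raised 2, among them Wars (1.47), and lowered Iars (-1.30).

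Among other stress factors and effectors, VWF at 3.5 h raised 5 and lowered 1 of 10 tested. Jdp2, a repressor of the AP-1 and ATF family, rose from 21.1 ± 1.05 to 286.2 ± 36.1 CPM (log2 fold change 3.79), the stress-induced chromatin protein Nupr1 by 2.02 and the mTORC1 inhibitor Ddit4 by 1.66. Gdf15, a secreted stress cytokine, fell by 2.68. Against the same controls 10 genes were tested with VWF and 9 with LPS, so at least 1 met the minimum only through VWF cultures. Ddit4 was scarce, at 7.93 ± 1.67 CPM with VWF and 2.56 ± 0.915 in controls. Calls of genes that met the minimum so are no support for the count. LPS at 3.5 h raised 3 and lowered 1 of 9, with Nupr1 at 3.52, Jdp2 at 3.01, the death effector Bbc3 at 2.45 and Gdf15 at -3.65. At 16 h VWF raised none and lowered 2 of 10, Gdf15 (-1.46) and Atf3 (-1.35), an immediate early stress factor. LPS raised 6 and lowered none of 10, with Nupr1 at 3.66, Cebpb at 2.51 and Jdp2 at 1.98. Ero1l (1.54), counted in the ER list as well, was among these 6. List medians were 0.89 and 0.04 with VWF and 0.56 and 1.51 with LPS.

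**Figure D4:**
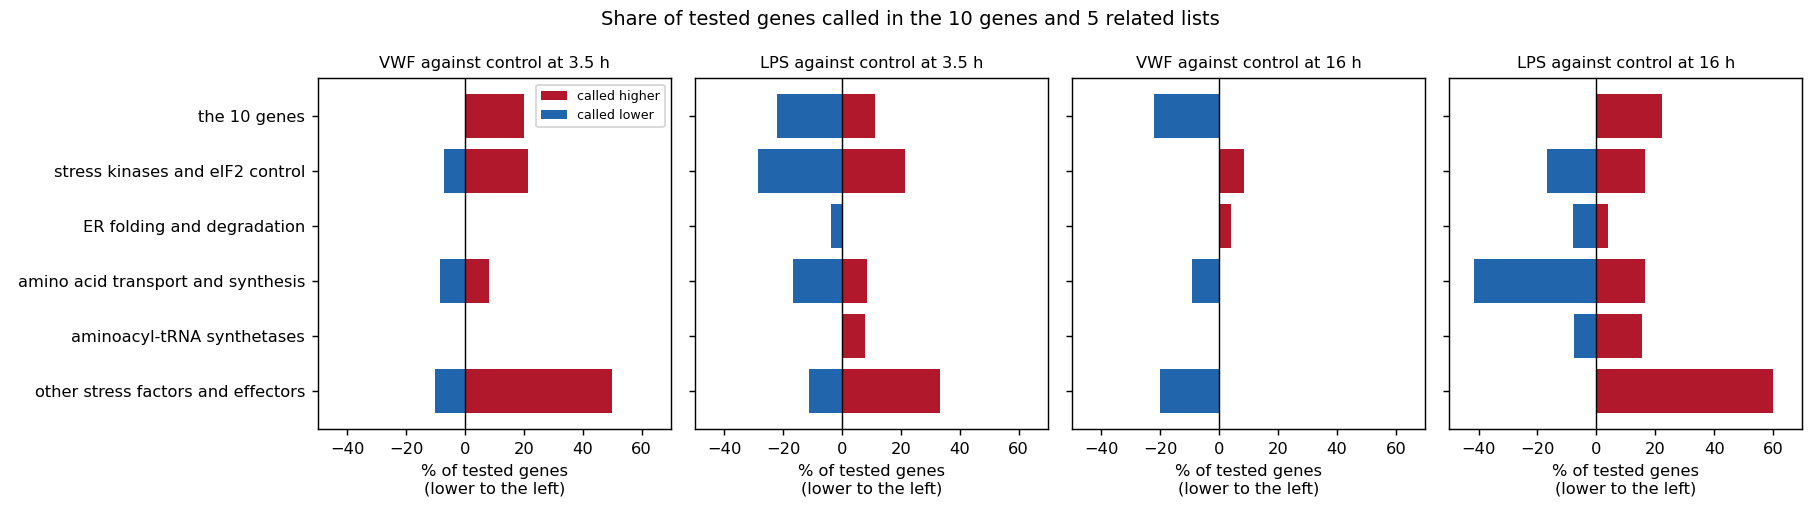
Share of tested genes (in %) called higher (right of 0) or lower (left of 0) in the 10 genes and 5 related lists, for VWF and LPS against control at both times. The list of other stress factors and effectors reaches 5 of 10 called higher with VWF at 3.5 h and 6 of 10 with LPS at 16 h, and 9 of the 10 genes were tested in every panel but the first. In the list of other stress factors and effectors, at least 1 gene was tested at 3.5 h only through VWF cultures.

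Each gene's profile over the 6 group means of log2 CPM, centred on its own mean, was set beside all other genes by the root mean square difference. Xbp1 and Hspa5 were the closest pair among the 10, at 0.152, followed by Atf4 and Asns at 0.298. The widest distances were 1.87 between Ppp1r15a and Sesn2 and 1.79 between Ppp1r15a and Herpud1. Outside the 10, the genes closest to Xbp1 were Tpm3 and Mfsd1 (0.0445 and 0.0710), those closest to Hspa5 were Kars and Capza2 (0.0994 and 0.118), and those closest to Atf4 were Prpf38b and Tmem127 (0.0704 and 0.0780). Asns lay closest to Borcs6 and Bsdc1 (0.0628 and 0.107), and Ddit3 to Setd4 and Bnip3 (0.166 and 0.199). Ppp1r15a lay closest to Serpinb2 and Gnb4 (0.305 and 0.323), Herpud1 to 2510009E07Rik and Gtf2ird2 (0.259 and 0.288), and Sesn2 to Ppp1r21 and Tcta (0.241 and 0.250). Chac1 lay closest to Atg9a and Tstd2 (0.258 and 0.268), and Trib3 to Tmco6 and Slc25a38 (0.372 and 0.419), the widest distances among the 10. With 6 groups, such likeness describes these profiles and nothing more.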

How the data were processed

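RNA from 28 cultures of bone marrow derived macrophages was sequenced, and the authors deposited raw counts per Ensembl gene. The submitters' processing notes name STAR and GRCm38/mm10, and by the paper's methods reads were mapped and quantified with STAR, with annotation and strand setting not stated there. Counts summed to 41131209 to 77699206 per library. No pair of cultures in a group agreed within sampling noise (lowest chi-square per degree of freedom 15.8 over 52 pairs). Of 54532 gene IDs, 54495 matched GENCODE M21, which gave names and exon lengths for TPM. Genes with at least 10 TPM in 1 culture of a fit were tested with edgeR 4.0.16 (robust quasi-likelihood test, TMM, R 4.3.3), with Benjamini-Hochberg adjustment over all genes tested. Pairwise comparisons were fitted on their own groups, and changes with time on 4 groups with an interaction. CPM were TMM-scaled, with a prior count of 2 for log2 profiles. The test was tried on simulated counts for 8 comparisons, with 200 genes changed by a log2 fold change of 2. The changed genes were drawn from those with a mean of at least 200 counts, so scarcer genes and smaller changes were not tried. Their directions were random and their number small, so shifts like those in the TMM factors of the LPS groups were not tried either. For VWF against control at 3.5 h the test recovered 99.5% of the changed genes, with 0 false calls. The lowest share was 95.5%, for both 16 h comparisons that hold LPS cultures. False calls reached 9, in the change of the LPS effect with time. DESeq2 1.42.0 and other scalings, filters and fits were alternatives, as was leaving out single cultures.

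The genes named were all 10 members, up to 3 called genes per list and direction with the largest fold change against control and no overlap between groups, and for each member the 2 genes with the most alike profile. The members and lists were chosen with earlier results of these data known, so no count of them is independent evidence. The labels give groups the same replicate numbers. Deviations of same-numbered cultures correlated above 0.1 in all 4 pairs (0.20 to 0.81) for 1 comparison, the 16 h cultures of VWF against LPS. There the numbers were taken to pair the cultures. The values given in the Results come from the fit without the replicate block, and values with it are given under the dependence on processing.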

Additional observations from a re-analysis of the deposited data

Results flagged for a closer look

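Of 60 sets of cultures (10 genes in 6 groups), 2 held a culture far from the others by Dixon's test at 95%, where chance gives about 1 in 20, or 3. Trib3 was at 3.92 CPM in replicate 1 of LPS at 3.5 h, with the other 3 cultures at 2.46 to 2.60. Hspa5 was at 804 CPM in replicate 4 of VWF at 16 h, with the others at 1018 to 1059.

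The effect of a treatment differed between 3.5 h and 16 h for several genes in the interaction test (edgeR, adjusted p below 0.05). For VWF the effect was lower at 16 h for Ppp1r15a (log2 difference -2.30), Trib3 (-1.81), Herpud1 (-1.30) and Asns (-1.07), and higher for Sesn2 (0.82). For LPS the effect was higher at 16 h for Ddit3 (2.40), Sesn2 (2.20), Trib3 (1.78) and Atf4 (1.19), and lower for Ppp1r15a (-0.89). Sesn2 under VWF and Ppp1r15a under LPS stayed under the fold threshold.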

How the results depend on the processing

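Counts of the 10 genes called kept within 1.5 times under DESeq2, median of ratios factors, both other filters and the replicate block in 11 of 11 comparisons. The replicate block left each of the 11 counts as it was (2 of 10 for VWF against control at 3.5 h, 4 of 9 for VWF against LPS at 16 h) and changed no call. For VWF against LPS at 16 h it gave Herpud1 1.08, Ddit3 -1.87, Trib3 -1.92 and Ppp1r15a -3.10. Some adjusted p of edgeR crossed 0.05 with the block. Among them were Trib3 with VWF at 3.5 h (0.0505 to 0.0133), Asns with LPS at 3.5 h (0.121 to 0.0452) and Ddit3 with VWF at 16 h (0.0486 to 0.0872). Without the fold threshold, which can only raise a count, 5 genes passed for VWF and 8 for LPS against control at 3.5 h (43.6% and 65.7% of all genes tested). At 16 h 8 passed for VWF and 8 for LPS (27.7% and 53.7%). For VWF against LPS at 3.5 h 8 passed (50.2%), and between the times 5 for control and 6 for LPS (49.6% and 59.3%). Fitting all groups together gave 1 for VWF against control at 3.5 h (Ppp1r15a at 0.99), and library-size scaling gave 1 there and 5 for LPS at 3.5 h. Leaving out 1 culture gave 1 to 2 for VWF at 3.5 h and 1 to 2 for control between the times, the latter with Ddit3 at 1.04 without replicate 1 of the early controls, and took Ppp1r15a in the change of the LPS effect to -1.01 without LPS replicate 4 at 16 h.

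Some signs turned. Library-size scaling took late Asns with LPS from 0.14 to -0.39, early Asns with LPS from 0.33 to -0.19, and Xbp1 with LPS at 16 h from 0.33 (adjusted p = 0.00747) to -0.21. It gave Atf4 -0.090 with VWF at 3.5 h, Xbp1 0.11 between the times with VWF, and, for VWF against LPS, Hspa5 0.012 at 3.5 h and Sesn2 0.21 at 16 h. Hspa5 in VWF against LPS at 16 h became -0.018 with edgeR's filter and -0.010 with the replicate block, and -0.059 to 0.088 without 1 culture. Between the times with VWF, Hspa5 became -0.0019 with DESeq2, -0.0019 with median of ratios factors, -0.00054 with edgeR's filter, -0.011 without a filter and -0.032 to 0.085 without 1 culture, and Xbp1 became 0.011 with all groups, 0.0013 with the block and -0.069 to 0.050 without 1 culture. Leaving out 1 culture turned the sign of 26 of 1442 gene values in all, among them also Herpud1 between the times with LPS (-0.15 to 0.060) and Hspa5 in the change of the VWF effect (-0.00080 to 0.17) and between the times in controls (-0.13 to 0.021). The cause of these changes was not tested. Chac1 had the fewest counts of the 10 (6 to 320 per library), and its change of the LPS effect with time was 2.57 with adjusted p = 0.0265 under edgeR's filter and 0.0543 without one.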

Other observations

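The related lists were also counted for VWF against LPS at 16 h, where 11.1% of 7574 genes tested were higher and 14.5% lower with VWF and 60.5% passed the adjusted p alone. Of the other stress factors and effectors, 6 of 10 tested were lower with VWF and none higher, with a list median of -1.41 on the log2 scale against 0.00 over all genes tested. Genes of ER folding and degradation had a median of 0.32, with 3 higher and 1 lower of 25 and 13 more that passed the adjusted p alone. Of the amino acid list 2 were higher and 3 lower of 10, and of the aminoacyl-tRNA synthetases 1 was higher and 1 lower of 13. Between the times under VWF, where 8.86% of 8660 genes were higher at 16 h and 11.8% lower, 5 of 26 genes of ER folding and degradation were higher at 16 h and 1 lower, with a median of 0.39, while 5 of 10 of the other stress factors and effectors were lower and none higher, with a median of -1.15. These lists were chosen with earlier results known, and share cultures across comparisons.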
